A study of Mus musculus with 6 samples.

Results

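The mitochondrial genome carries the genes of tRNA-Ile, tRNA-Gln and tRNA-Met side by side, and the fragments of these 3 tRNAs are described here in cultured mouse pulmonary artery smooth muscle cells. A sequence was counted as a member when every annotation that the count table gives it names mitochondrial tRNA-Ile (mt_tRNA-Ile-GAT), tRNA-Gln (mt_tRNA-Gln-TTG) or tRNA-Met (mt_tRNA-Met-CAT). This gave 1095 of the table's 38798 distinct sequences, 300 from tRNA-Ile, 383 from tRNA-Gln and 412 from tRNA-Met. The cells were primary wild-type cultures. The normoxia group was kept in standard culture and the hypoxia group at 3% oxygen for 24 hours, with 3 biological replicates each. Small RNA was sequenced by Pandora-seq, in which enzymes take off RNA modifications that would otherwise stop adapter ligation or reverse transcription. The table holds tRNA fragments only, so the labelled cell type could not be checked against smooth muscle markers. In libraries of whole cultures, fewer cells of a type and less RNA per cell cannot be told apart.

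Mitochondrial tRNAs are transcribed inside the organelle and read the codons of the few respiratory chain subunits that are made there. Their genes sit between the protein and rRNA genes, and the long transcripts are cut at the tRNAs by RNase P at the 5' side and by RNase Z (ELAC2) at the 3' side, after which CCA is added to the 3' end. Mitochondrial tRNA-Met is used both to start and to extend proteins in mitochondria, while tRNA-Ile and tRNA-Gln only extend them. Short pieces of tRNAs, called tsRNAs, arise by cleavage in or near the anticodon loop and elsewhere in the molecule.

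The 3 genes lie on mouse chromosome M (GRCm38, the assembly of mm10; GENCODE M21) between the complex I genes mt-Nd1 and mt-Nd2. The gene of tRNA-Ile, mt-Ti (ENSMUSG00000064342), spans chrM:3706-3774 on the + strand. That of tRNA-Gln, mt-Tq (ENSMUSG00000064343), spans chrM:3772-3842 on the − strand and so shares 3 bases with mt-Ti on the other strand. That of tRNA-Met, mt-Tm (ENSMUSG00000064344), spans chrM:3845-3913 on the + strand, 2 bases away from mt-Tq and directly before mt-Nd2, which starts at 3914. All 3 are noncoding genes without introns whose whole length is the tRNA. The encoded tRNAs are shown because every position below is counted on them, from 1 at the 5' end. They are written as DNA, with the anticodon in capitals and without the CCA that is added later.
mt_tRNA-Ile-GAT: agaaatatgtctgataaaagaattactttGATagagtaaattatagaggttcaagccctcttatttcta
mt_tRNA-Gln-TTG: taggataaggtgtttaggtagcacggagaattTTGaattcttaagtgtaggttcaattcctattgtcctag
mt_tRNA-Met-CAT: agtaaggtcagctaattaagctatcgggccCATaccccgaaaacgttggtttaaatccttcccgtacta
They are 69, 71 and 69 nt long, so that counts can be compared between them without a length correction. The anticodon takes positions 30 to 32 in tRNA-Ile, 33 to 35 in tRNA-Gln and 31 to 33 in tRNA-Met. G and C make up 27.5%, 36.6% and 44.9% of their bases. Aligned in pairs they share 45.7% to 58.7% of positions, and each of the 1095 member sequences matched its own tRNA with CCA exactly and at 1 place, with 0 found in any other mitochondrial tRNA. No fragment of these tRNAs therefore had to be divided between families.

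The fragments that carry most of the results below are shown next, in capitals where they hold anticodon bases. Fragment names give the first and last position on the tRNA.
Ile 1-30, the most abundant of tRNA-Ile by mean CPM: agaaatatgtctgataaaagaattactttG
Ile 1-32, ending on the last anticodon base: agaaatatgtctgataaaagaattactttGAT
Ile 7-32, the same end from a later start: atgtctgataaaagaattactttGAT
Ile 1-37: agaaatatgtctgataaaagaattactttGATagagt
Ile 7-37: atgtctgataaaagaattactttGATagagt
Gln 1-42, the most abundant of all 3 tRNAs by mean CPM: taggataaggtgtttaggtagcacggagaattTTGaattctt
Gln 1-39: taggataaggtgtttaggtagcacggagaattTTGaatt
Met 1-29, the most abundant of tRNA-Met by mean CPM: agtaaggtcagctaattaagctatcgggc
Met 18-50: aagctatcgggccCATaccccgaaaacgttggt
Met 34-52, starting right after the anticodon: accccgaaaacgttggttt
On chromosome M, Ile 1-32 is 3706 to 3737, Ile 7-32 is 3712 to 3737, Gln 1-42 is 3801 to 3842 and Met 34-52 is 3878 to 3896. Ile 7-32 lies inside Ile 1-32, and Gln 1-39 inside Gln 1-42, so that such pairs share their source and are not separate signals.

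The libraries held 330787 to 2563749 counts each. Both libraries numbered 1 were the shallowest (510519 in hypoxia and 330787 in normoxia) and differed most from the remaining 4: mitochondrial tRNAs supplied 15.3% and 14.4% of their counts, against 6.0% to 7.33% elsewhere. Fragments of the 3 tRNAs took 4609 to 21483 counts a library, or 0.621% to 1.45% of all counts. At these depths 1 count is worth 1.96 CPM in hypoxia 1 and 3.02 CPM in normoxia 1, but at most 0.614 CPM elsewhere. CPM here are counts scaled to a library total of 1e+06 tRNA-derived counts. Results are therefore given with and without the libraries numbered 1. The 4 libraries numbered 2 and 3 are called deep. Same-numbered libraries are called a pair, and the replicate number was modelled as a block in a second fit.

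Fragments of tRNA-Ile and tRNA-Gln were at lower levels in hypoxia in pairs 2 and 3 and at near-equal levels in pair 1, while tRNA-Met was near equal in all 3 pairs. For tRNA-Ile the level was 8008, 232.1 and 208.9 CPM in hypoxia 1, 2 and 3 and 7772, 491.9 and 744.9 CPM in normoxia 1, 2 and 3. The libraries numbered 1 were far above the rest in both groups, and in the other 4 both hypoxia values lay under both normoxia values. The pair ratios, hypoxia over normoxia, were 1.03, 0.472 and 0.280. For tRNA-Gln the level was 3254, 5086 and 4592 CPM in hypoxia and 2929, 7707 and 11036 CPM in normoxia. Here the libraries numbered 1 were the lowest of their groups, and the ratios were 1.11, 0.660 and 0.416. For tRNA-Met the level was 3238, 1363 and 1407 CPM in hypoxia and 3232, 1452 and 1401 CPM in normoxia. Its ratios of 1.002, 0.939 and 1.004 lay closest to equality among the 22 mitochondrial families, with none further from it than 0.091 on the log2 scale. Mitochondrial tRNA-Cys was next, at 0.0995.

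**Figure D1:**
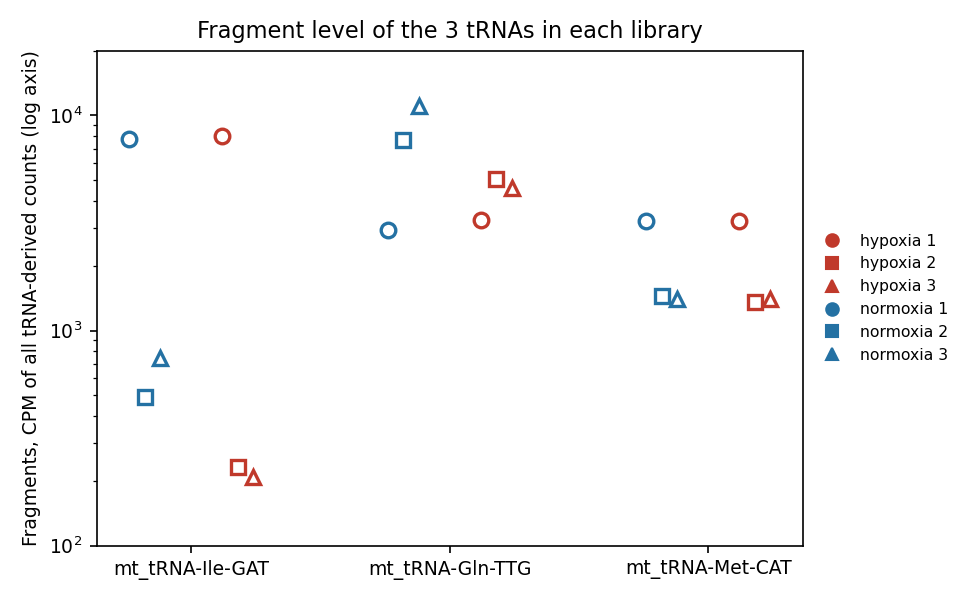
Fragment level of each tRNA in each library, in CPM of all tRNA-derived counts on a log axis; colour gives the group and the symbol the replicate number. The circles (libraries numbered 1) sit at 7772 and 8008 CPM for tRNA-Ile while the other libraries reach at most 744.9, and for tRNA-Gln the circles are the lowest of their group.

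The order of the 3 tRNAs depended on the library. In both libraries numbered 1 it was tRNA-Ile first, with tRNA-Gln and tRNA-Met close together (3254 and 3238 CPM in hypoxia 1, 2929 and 3232 CPM in normoxia 1). In the other 4 libraries it was tRNA-Gln, then tRNA-Met, then tRNA-Ile, in each of them. Within groups the spread exceeded these gaps for some neighbours: tRNA-Ile averaged 2816 ± 4496 CPM (SD, n = 3) in hypoxia and 3003 ± 4132 in normoxia, tRNA-Met 2003 ± 1070 and 2028 ± 1042, and tRNA-Gln 4310 ± 948 and 7224 ± 4075. Over the mean of the other 2 libraries of its group, the library numbered 1 held 36.3 times the tRNA-Ile level in hypoxia and 12.6 times in normoxia. By the smaller of such values over both groups tRNA-Ile ranked 2 of all 73 tRNA families, after mitochondrial tRNA-Leu-TAG, and tRNA-Met, at 2.34 and 2.26 times, ranked 32. These are ratios of CPM on library totals. The family scaling factors by trimmed means (TMM) were 1.81 in hypoxia 1 and 1.73 in normoxia 1, against 0.711 to 0.776 in the others. Such scaling would lower these ratios.

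None of the 3 families passed the test between the groups. edgeR was fitted to all 73 families with no term but the group, and the log2 change in hypoxia was -0.26 for tRNA-Ile (SE 1.39), -0.85 for tRNA-Gln (SE 0.77) and -0.06 for tRNA-Met (SE 0.24), each with an adjusted p of 0.996. This fit called 0% of families, and unadjusted p-values under 0.05 were found for 0 higher and 2 lower ones. With DESeq2 0 higher and 2 lower families passed and with limma voom 0 and 0, none of them from this cluster. DESeq2 gave tRNA-Ile no p-value. The median family stood at -0.07 with trimmed-mean scaling and at 0.11 with DESeq2 size factors. Relative to that median tRNA-Ile was at -0.20 and -0.17, tRNA-Gln at -0.78 and -0.80, and tRNA-Met at 0.0078 and 0.0029, so that the raw sign of tRNA-Met turned with the scaling.

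With the replicate block the tRNA-Ile estimate was -0.98 (SE 0.29, adjusted p = 0.0718), that of tRNA-Gln -0.61 (SE 0.22, adjusted p = 0.147) and that of tRNA-Met -0.06 (SE 0.17, adjusted p = 0.921). That fit called 4.11% of families lower, none of them from this cluster. limma voom with the block, which called 6.85% of families lower, did call tRNA-Ile (-0.91, SE 0.25, adjusted p = 0.0339) and gave tRNA-Gln an adjusted p of 0.0533. DESeq2 with the block did not call tRNA-Ile (-0.81, SE 0.36, adjusted p = 0.130), nor did the blocked edgeR fit with DESeq2 size factors (-0.81, SE 0.37, adjusted p = 0.243). Without pair 1 the blocked edgeR fit called 17.8% of families lower, among them tRNA-Ile (-1.48) and tRNA-Gln (-0.96), and without pair 2 or pair 3 it called none of the 3 tRNAs. With replicates 2 and 3 alone, a choice made after both libraries numbered 1 were seen to stand apart, tRNA-Ile fell by 1.51 on the log2 scale (SE 0.24, adjusted p = 0.0204) and tRNA-Gln fell by 0.98 (SE 0.19, adjusted p = 0.0418). tRNA-Met was at -0.07 (SE 0.14, adjusted p = 0.766). In that fit 11.0% of the 73 families fell. The tRNA-Ile estimate without the block was -3.02 without hypoxia replicate 1 and 1.26 without normoxia replicate 1, so its sign rested on which of these 2 libraries was in the fit.

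The other 19 mitochondrial tRNA families give the setting. Without the block 0 of the 19 were called, and their log2 changes ran from -1.17 to 0.37 with a median of -0.15. With the block 2 fell, tRNA-Gly-TCC and tRNA-Phe-GAA, and the median was -0.26. With replicates 2 and 3 alone 5 fell (tRNA-Asp-GTC, tRNA-Gly-TCC, tRNA-Phe-GAA, tRNA-Ser-GCT and tRNA-Tyr-GTA), 0 rose, and the median was -0.49. Ordered from the lowest blocked estimate, tRNA-Ile was number 2 of the 22 mitochondrial families, tRNA-Gln number 6 and tRNA-Met number 15. The 3 neighbouring genes therefore stood at different places in this order, and the differences between them were not tested.

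**Figure D2:**
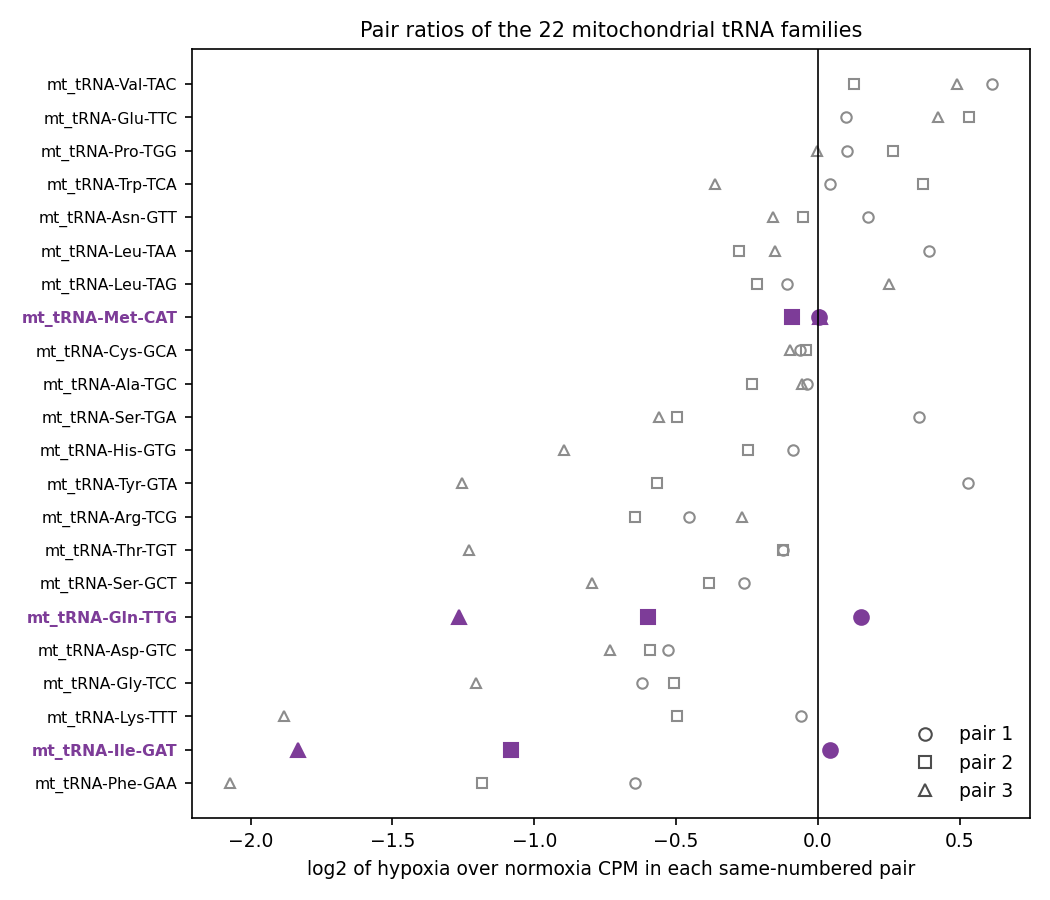
log2 of the hypoxia over normoxia CPM in each same-numbered pair for the 22 mitochondrial tRNA families, ordered by the blocked estimate; symbols give the pair and the 3 tRNAs of the cluster are filled. For tRNA-Ile and tRNA-Gln the pair 1 symbol lies at or above 0 while pairs 2 and 3 lie below it, and the 3 symbols of tRNA-Met almost coincide at 0.

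The tRNAs differed in which part of the molecule was found. The table sorts each fragment as a 5' end (starting at position 1), an internal fragment, a 3' end without CCA or a CCA end. Of the tRNA-Gln counts 86.7% and 84.8% were 5' ends in hypoxia 2 and 3 and 88.8% and 92.1% in normoxia 2 and 3, against 62.6% and 61.3% in hypoxia 1 and normoxia 1. tRNA-Met was the opposite, with internal fragments at 72.0% to 89.9% of its counts in the 6 libraries. For tRNA-Ile 5' ends made up 61.0%, 30.3% and 34.9% in hypoxia and 62.2%, 50.96% and 51.98% in normoxia. Both lower values of hypoxia lay under all 3 of normoxia, and hypoxia 1 lay within the normoxia range. The means were 42.1 ± 16.6% and 55.1 ± 6.2% (SD, n = 3 each; two-sided exact permutation p = 0.3, adjusted to 0.686 over 12 class shares; the smallest p possible is 0.1). The exact binomial (Clopper-Pearson) 95% intervals of these shares reach at most 5.06 percentage points to either side for tRNA-Ile, 3.11 for tRNA-Gln and 1.85 for tRNA-Met. They cover counting error only, since reads without molecular identifiers are not independent molecules.

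**Figure D3:**
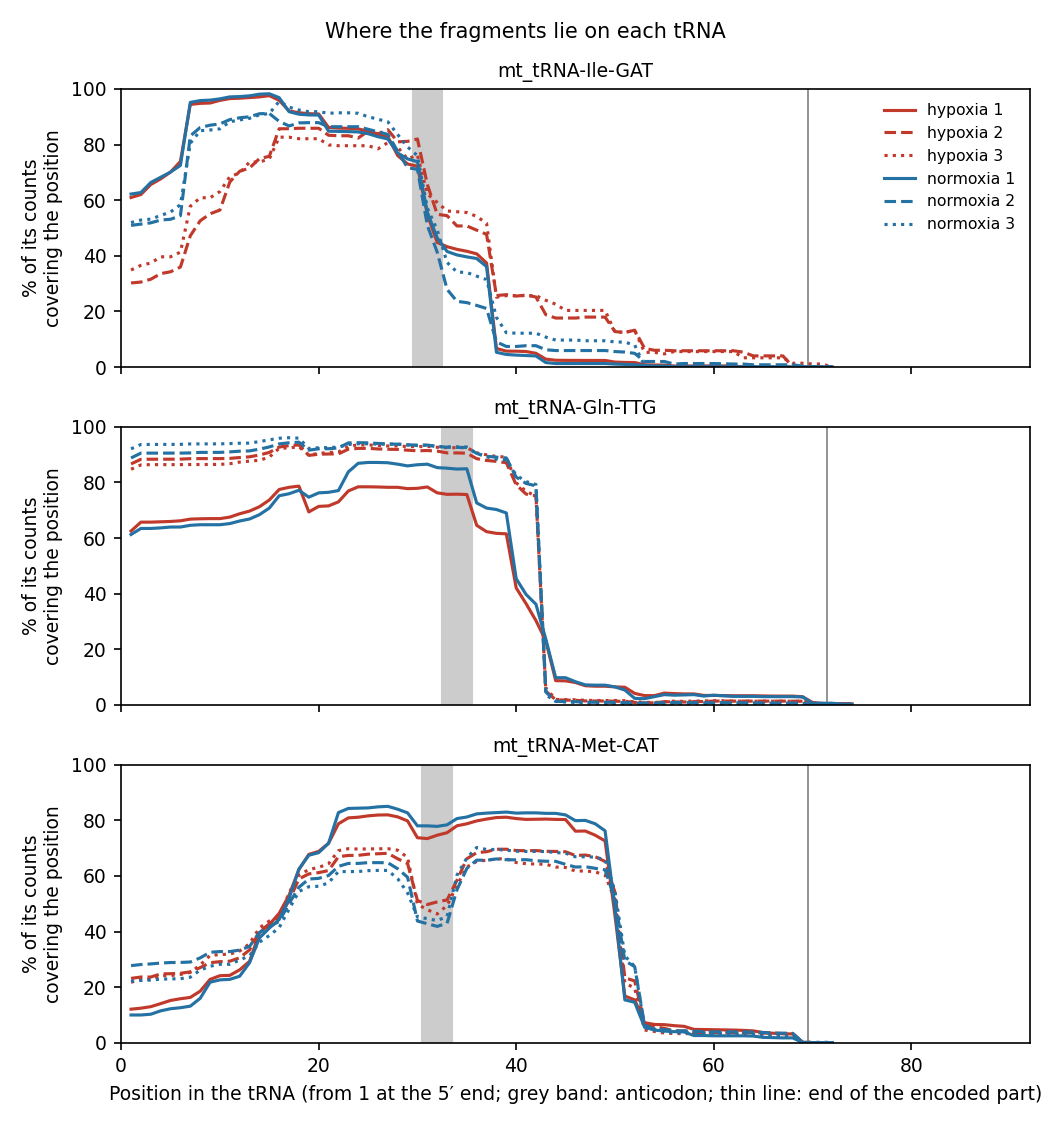
Percent of each tRNA's counts that cover each position, by library (colour, group; line style, replicate number). tRNA-Gln drops after position 42 in the 4 deep libraries, and tRNA-Met dips at the anticodon more deeply there than in the libraries numbered 1. The 5' end of tRNA-Ile is covered less in hypoxia 2 and 3 than in the other libraries.

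Summed by class, 5' ends of tRNA-Ile had 4883, 70.2 and 72.9 CPM in hypoxia and 4837, 250.7 and 387.2 CPM in normoxia. The pair ratios were 1.01, 0.280 and 0.188, against 1.06, 0.676 and 0.379 for its internal fragments. 5' ends of tRNA-Gln had 2035, 4408 and 3893 CPM in hypoxia and 1796, 6845 and 10162 CPM in normoxia, with ratios of 1.13, 0.644 and 0.383, against 1.07, 0.765 and 0.809 for internal ones. Both tRNAs thus had ratios further from 1 in the 5' class than in the internal class in pairs 2 and 3. For tRNA-Met the 5' ratios were 1.21, 0.784 and 0.985 and the internal ratios 0.977, 0.9997 and 1.01. In the fit of 240 class sums with the group alone 0% were called (the 5' ends of tRNA-Ile at -0.30, SE 1.59, and of tRNA-Gln at -0.98, SE 0.95). With the block none of the 3 tRNAs' class sums was called by edgeR (5' ends of tRNA-Ile at -1.44, SE 0.44, adjusted p = 0.252), while DESeq2 with the block called the 5' ends of tRNA-Ile (-1.41, SE 0.40, adjusted p = 0.0198) among 2.08% of class sums lower. With replicates 2 and 3 alone the 5' ends of tRNA-Ile fell by 2.20 (SE 0.31, adjusted p = 0.0210) and those of tRNA-Gln fell by 1.08 (SE 0.21, adjusted p = 0.0448). In that fit 1.69% of class sums fell, and 2 of these 4 belonged to this cluster. On the same libraries the edgeR fit with the block, that is without pair 1, called 0 class sums. It gave the 5' ends of tRNA-Ile (-2.16) and of tRNA-Gln (-1.05) an adjusted p of 0.319 each. Without pair 2 or pair 3 the blocked fit did not call the 5' ends of tRNA-Ile either (adjusted p = 0.110 and 0.0775).

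In the 4 deep libraries most tRNA-Gln counts came from a single sequence, Gln 1-42, whose last base closes the 3' side of the anticodon stem. It was counted 105, 8945 and 5312 times in hypoxia and 106, 12304 and 13220 times in normoxia. It made up 68.6% and 67.5% of all tRNA-Gln counts in hypoxia 2 and 3 and 72.0% and 73.5% in normoxia 2 and 3, but 6.32% in hypoxia 1 and 10.9% in normoxia 1. There Ile 1-30 exceeded it (556 and 374 counts), as did Gln 1-39 (172 and 114) and, in hypoxia 1, Gln 1-18 (222). In CPM it had 205.7, 3489 and 3099 in hypoxia and 320.4, 5547 and 8112 in normoxia, and was lower in hypoxia in each pair by ratios of 0.642, 0.629 and 0.382. It was not called without the block (log2 -1.09, SE 1.35, adjusted p = 1.0 in edgeR) or with it (-0.92, SE 0.27, adjusted p = 0.266). When the most abundant sequence of each tRNA was left out, the family estimate of tRNA-Gln went from -0.85 to -0.49 (SE 0.34) without the block and from -0.61 to -0.42 (SE 0.23) with it.

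The end at position 42 was also found on other tRNA-Gln fragments, but it did not lead in every start class. Among fragments starting at position 2 it closed 110 of 215 and 57 of 121 counts in hypoxia 2 and 3 and 170 of 296 and 160 of 284 in normoxia 2 and 3, but 0 of 53 in hypoxia 1 and 3 of 21 in normoxia 1. By the limit of 3 counts the 0 of 53 allows a share up to 5.66%, and its exact 95% interval reaches 6.72%. Among fragments starting after position 2 it closed 6.8%, 6.7%, 12.3% and 19.9% in the same 4 libraries and 3.0% and 4.0% in the libraries numbered 1. For these later starts position 39 closed more, at 40.9%, 44.5%, 36.7% and 30.6% in the same 4 libraries and 24.8% and 29.9% in the libraries numbered 1. In all 3 start classes the 2 libraries numbered 1 held the lowest shares of ends at position 42. Over all starts position 42 closed 7.34% in hypoxia 1 and 12.7% in normoxia 1, against 69.1% to 75.7% in the others. Ends at positions 39, 43 and 35 took 19.6%, 14.3% and 11.3% of tRNA-Gln counts in hypoxia 1 and 23.6%, 13.8% and 12.5% in normoxia 1, against at most 9.2%, 4.1% and 2.3% in the others. The end on position 35 is on the last anticodon base. Gln 1-39 had 336.9, 145.5 and 133.0 CPM in hypoxia against 344.6, 248.9 and 365.1 in normoxia (block -0.77, SE 0.35, adjusted p = 0.770). Gln 1-18 had 434.9, 207.5 and 173.9 against 184.4, 272.8 and 457.7 CPM, in opposite directions in pairs 1 and 3.

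In tRNA-Ile the fragments that end on the last base of the anticodon, position 32, were scarcer in hypoxia in every pair. Ile 7-32 was counted 26, 1 and 9 times in hypoxia and 59, 97 and 81 times in normoxia. Ile 1-32 was counted 28, 3 and 2 times against 52, 52 and 61 times. In CPM Ile 7-32 had 50.9, 0.390 and 5.25 against 178.4, 43.7 and 49.7, and Ile 1-32 had 54.9, 1.17 and 1.17 against 157.2, 23.4 and 37.4. Each pair differed in the same direction, but hypoxia 1 lay above normoxia 2 and 3, so the groups overlap. A fragment can pass the filter on low counts through a single group. Ile 7-32 rests on 1 count in hypoxia 2, and Ile 1-32 on 3 and 2 counts in hypoxia 2 and 3. The effect of this on the calls was not tested. Ile 7-32 and Ile 1-32 were both called in the edgeR fit with the block, at log2 -3.32 (SE 0.63, adjusted p = 0.0184) and -3.21 (SE 0.65, adjusted p = 0.0227). They were not called with the group alone (-2.45, SE 1.29, and -2.12, SE 1.38, adjusted p = 1.0 each), and limma voom with the block gave adjusted p-values of 0.123 and 0.213. Without pair 2 the blocked estimates were -2.42 and -2.74 and neither was called (adjusted p = 0.629 and 0.527). With replicates 2 and 3 alone and no block they were -4.18 and -4.67 (adjusted p = 0.111 and 0.0982).

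Over all fragments of tRNA-Ile, whatever their start, 1.5%, 0.84% and 3.1% of counts ended at position 32 in hypoxia and 5.0%, 14.5% and 11.9% in normoxia, without overlap. This end was singled out after the calls were seen, so these shares are a description. Ends on the other anticodon bases had smaller gaps. Position 30 closed 17.6%, 16.3% and 13.97% in hypoxia and 18.2%, 20.2% and 18.9% in normoxia. These values do not overlap, but the exact 95% intervals of hypoxia 1 (16.4% to 18.8%) and normoxia 1 (16.7% to 19.7%) do. Position 31 closed 10.1%, 10.8% and 6.1% against 9.3%, 9.991% and 7.8%, with overlap. Of the counts that end on any of the 3 anticodon bases, those on position 32 were 63 of 1193, 5 of 166 and 11 of 83 in hypoxia (5.3%, 3.0% and 13.3%) and 128 of 834, 158 of 487 and 144 of 468 in normoxia (15.3%, 32.4% and 30.8%). The widest exact 95% interval of these 6 shares, that of hypoxia 3, has a half-width of 7.8 percentage points. Split by start, the same share was 3.2%, 7.1% and 9.5% against 8.6%, 20.9% and 24.1% for fragments that start at position 1, and 21.1%, 2.5% and 36.0% against 52.7%, 66.9% and 63.3% for those that start at position 7. For start 1 these shares rest on 865, 42 and 21 counts against 602, 249 and 253, with half-widths up to 14.6 percentage points. The 9.5% of hypoxia 3 is 2 of 21 counts, under the limit of 3 counts (14.3%), and lies above the 8.6% of normoxia 1, so the groups overlap. For start 7 they rest on 123, 40 and 25 counts against 112, 145 and 128, with half-widths up to 19.8 points, and the groups do not overlap. Fragments with other starts held only 9, 1 and 0 counts against 17, 9 and 2 at this end. Their shares, 4.4%, 1.2% and 0% against 14.2%, 9.7% and 2.3%, overlapped between the groups.

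A further end of tRNA-Ile, position 37 on the 3' side of the anticodon stem, went the other way as a share in pairs 2 and 3. It closed 30.9%, 24.2% and 29.1% of counts in hypoxia and 30.8%, 12.1% and 14.8% in normoxia. By start, this share was 21.1%, 16.7% and 36.0% against 19.9%, 7.19% and 10.6% for fragments that start at position 1, and 26.2%, 30.5% and 25.9% against 27.5%, 9.91% and 13.7% for starts other than 1 and 7. For fragments that start at position 7 it was 64.1%, 11.9% and 23.7% against 63.1%, 22.4% and 26.1%, so that in pairs 2 and 3 these were lower in hypoxia. Its level was nearer to equal than that of the whole tRNA in pairs 2 and 3, at 2472, 56.2 and 60.7 CPM in hypoxia against 2397, 59.5 and 110.4 in normoxia. By mean CPM over the 6 libraries, which the libraries numbered 1 dominate, the most abundant fragments were Ile 1-30, with 1089, 12.1 and 11.1 CPM in hypoxia against 1131, 60.4 and 81.6 CPM in normoxia, and Ile 7-37, with 1052, 3.12 and 8.17 against 1109, 31.6 and 42.9. Ile 1-37 had 1032, 11.7 and 26.3 against 964.4, 18.03 and 41.1. In the deep libraries the order differed: Ile 11-37 led in hypoxia 2 (36 counts against 31 for Ile 1-30), Ile 1-37 in hypoxia 3 (45 against 19), and in normoxia 2 and 3 Ile 7-32 exceeded Ile 7-37. In pair 1 the 3 fragments had ratios of 0.963, 0.948 and 1.07. DESeq2 with the block, which called 0.201% of tsRNAs lower, called Ile 7-32 and Ile 1-32 and also Ile 1-30 (-1.75, SE 0.47, adjusted p = 0.0308) and Ile 7-37 (-1.84, SE 0.50, adjusted p = 0.0359), which edgeR with the block did not (adjusted p = 0.181 and 0.219). Starts at positions 1 and 7 together held 81.5%, 41.5% and 51.4% of counts in hypoxia and 84.9%, 79.7% and 74.1% in normoxia. Position 16 started 0.930%, 11.3% and 11.5% of counts in hypoxia against 1.01%, 1.92% and 5.52% in normoxia, and position 11 started 0.636%, 10.1% and 5.3% against 0.70%, 1.56% and 2.55%. As shares, both starts were thus more frequent in hypoxia in pairs 2 and 3 and near equal in pair 1. The tRNA-Ile total itself was lower in hypoxia in pairs 2 and 3 (ratios 0.472 and 0.280). As levels, both starts were therefore higher in hypoxia in pair 2 but lower in pair 3.

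**Figure D4:**
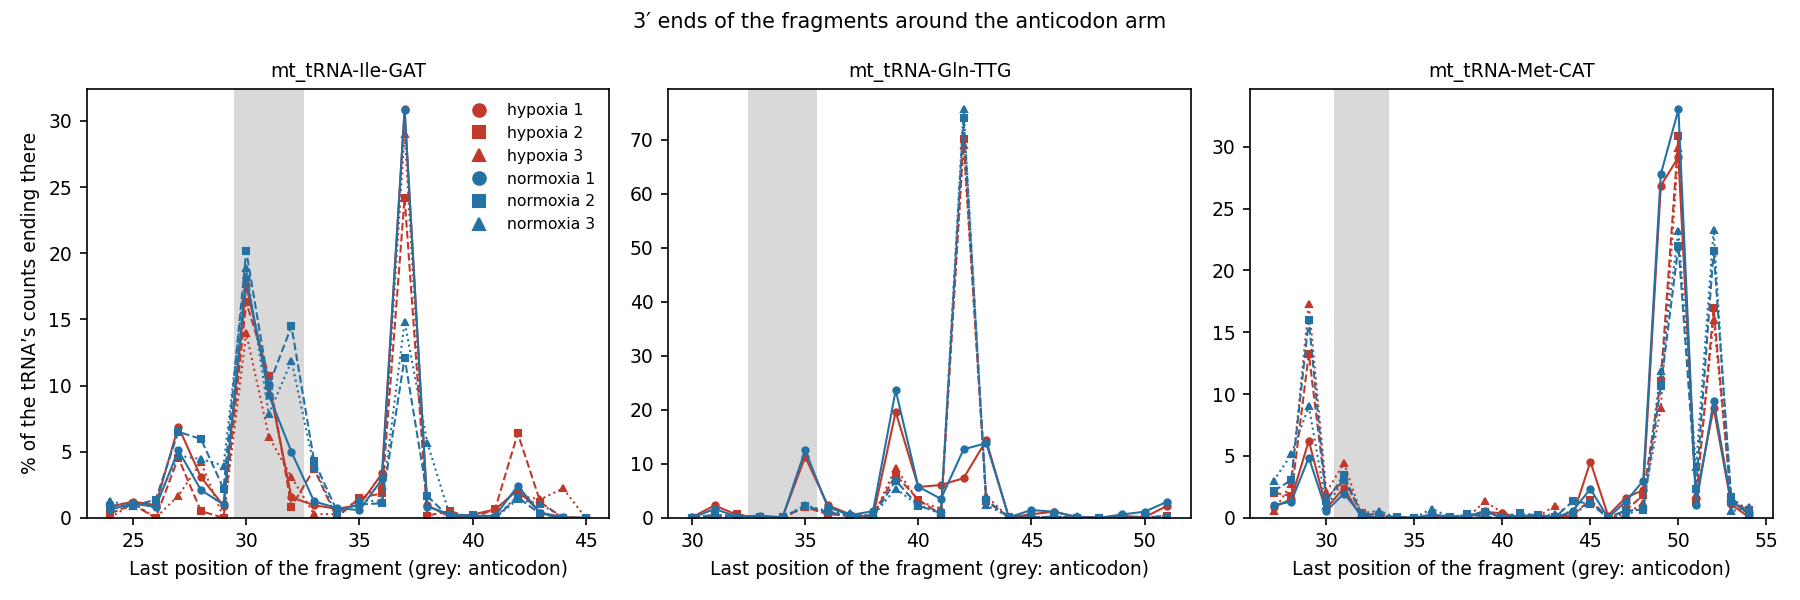
Percent of each tRNA's counts whose last base is at each position around the anticodon arm, by library (colour, group; symbol, replicate number; grey, anticodon). For tRNA-Ile the blue normoxia points at position 32 lie above all red hypoxia points, for tRNA-Gln position 42 is far lower in both libraries numbered 1 (7.34% and 12.7%) than in the others, and for tRNA-Met the peaks lie at positions 29, 49, 50 and 52.

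Fragments of tRNA-Met ended most often past the anticodon arm, whose last stem base is position 40. Ends at positions 49, 50 and 52 together held 64.9%, 58.9% and 54.8% of its counts in hypoxia and 70.3%, 54.2% and 58.3% in normoxia. The most abundant fragment by mean CPM, Met 1-29, was exceeded by Met 18-50 in both libraries numbered 1 (73 counts against 36 in hypoxia and 66 against 15 in normoxia) and by Met 34-52 in normoxia 3 (288 against 134). Met 1-29 ends on the first base of the anticodon loop and had 70.5, 124.8 and 137.7 CPM in hypoxia against 45.4, 177.6 and 82.2 in normoxia, higher in pairs 1 and 3 and lower in pair 2. Met 18-50, which spans the whole anticodon arm, had 143.0, 45.3 and 64.2 against 199.5, 54.1 and 25.2 CPM, in mixed directions as well. Met 34-52, which starts at the base after the anticodon, had 15.7, 55.8 and 73.5 CPM in hypoxia against 15.1, 145.6 and 176.7 in normoxia, with pair ratios of 1.04, 0.383 and 0.416 (block -1.10, SE 0.43, adjusted p = 0.628). Of these 3 fragments it alone was lower in both deep pairs, and it was not called.

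Fragments of tRNA-Met that start at position 34 or 35 were rare in the libraries numbered 1 (3.3% in hypoxia 1 and 2.8% in normoxia 1) and frequent in the others (15.0% and 14.2% in hypoxia 2 and 3, 20.02% and 21.6% in normoxia 2 and 3). Where they ended is given for the deep libraries first. Among them 28.8% and 39.5% ended at position 52 in hypoxia 2 and 3 against 62.5% and 60.9% in normoxia 2 and 3, and 61.3% and 51.8% ended at 49 or 50 against 27.4% and 31.8%. The libraries numbered 1 held 54 and 30 such counts, with 22.2% and 23.3% ending at 52. Fragments that start at positions 14 to 22 had overlapping shares in the groups, with 9.6%, 16.4% and 17.8% ending at 52 in hypoxia and 9.9%, 13.2% and 19.97% in normoxia. These start windows were chosen after the values were seen and carry no test.

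At the level of single sequences, 148 of the 1095 members passed the filter on low counts (28 of tRNA-Ile, 57 of tRNA-Gln and 63 of tRNA-Met, with 89.6% of the members' counts). The others were too rare to test, and 403 members were seen in 1 library only. With the group alone edgeR called 0% of the 6452 tsRNAs tested (unadjusted p-values under 0.05 were found for 18 higher and 27 lower, of which 0 and 0 were members). With the block 0.0775% were called lower and 0.0775% higher. The members had 2 calls lower, the 2 tRNA-Ile fragments above, and 0 higher. The median log2 change of tested members in the blocked fit was -1.43 for tRNA-Ile, -0.36 for tRNA-Gln and 0.20 for tRNA-Met, against 0.02 over all tested tsRNAs. For tRNA-Ile that median depended on the fit: it was -2.52 without pair 1, -0.43 without pair 2 and -0.33 without pair 3, -0.69 in limma voom with the block, and -0.21 with the group alone. The filter was rerun for each fit, so these medians do not cover the same members. They cover 22, 52 and 54 without pair 1, 2 and 3, and 28 with all libraries. A fragment can pass the filter through a single group, and the effect of this on the medians and on the calls was not tested. Calls by the block depended on the pairs in the fit. Without pair 2 it called 0 members, without pair 3 it called 2 (of 0.0986% of tsRNAs called lower) and without pair 1 it called 6 (of 0.308%). All of these were lower and from tRNA-Ile. Those 6 were Ile 7-32 and Ile 1-32 with Ile 1-30, Ile 1-31, Ile 1-38 and Ile 7-37.

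Directions over pairs need no model but assume that same-numbered libraries belong together. With replicates 2 and 3 taken alone, same-numbered libraries correlated at -0.0281. Of the 148 tested members 24 had the lower value under hypoxia in every pair and 15 the higher one, against 13.4% and 15.0% of all tested tsRNAs. By tRNA these were 8 lower and 0 higher of 28 for tRNA-Ile, 10 and 3 of 57 for tRNA-Gln, and 6 and 12 of 63 for tRNA-Met. Many overlap, so they are not independent. The groups did not overlap for 2 members lower in hypoxia and 4 higher, beside 2.51% and 2.32% of all tested tsRNAs, a share near that background. They are named here with their values seen. Gln 14-39 had 13.7, 17.2 and 12.8 CPM in hypoxia against 24.2, 35.2 and 24.5 in normoxia, and Gln 1-15 had 3.92, 11.3 and 5.25 against 12.1, 22.1 and 22.7. Those higher in hypoxia were Gln 1-21 (11.7, 26.9 and 11.7 against 6.05, 6.76 and 7.36 CPM) and 3 fragments of tRNA-Met. Of these Met 32-52, which starts on the second anticodon base, had 21.6, 25.0 and 24.5 against 6.05, 13.5 and 7.98 CPM. Met 32-50, with the same start, had 19.6, 19.5 and 6.42 against 6.05, 1.80 and 4.91, and Met 35-49 had 9.79, 16.8 and 7.59 against 6.05, 7.21 and 7.36. None of the 6 was called, and in normoxia 1 the 4 higher ones rest on 2 counts each.

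Fragments that reach the tRNAs' 3' end were scarce. The CCA end class held 129 of 58617 tRNA-Gln counts over the 6 libraries, 11 of 14133 of tRNA-Met and 4 of 9917 of tRNA-Ile. All of these were under 20 nt. Among fragments that end within the last 9 positions (the last 6 encoded bases and CCA), a complete CCA was found in 11.3%, 31.5% and 15.0% for tRNA-Gln in hypoxia and 10.3%, 11.7% and 48.5% in normoxia (exact permutation p = 0.9, n = 3 each). Counted only over tRNA-Gln fragments that end within the added tail, the share was 85.7%, 93.4% and 37.2% against 50%, 100% and 94.3%, on 6 to 61 counts a library (exact permutation p = 0.5, n = 3 each). For tRNA-Met, again over the last 9 positions, it was 1.41%, 0% and 4.17% against 3.85%, 1.63% and 5.41% (exact permutation p = 0.4, n = 3 each). Over those positions the denominators were 29 to 181 counts for tRNA-Gln and 26 to 128 for tRNA-Met. For tRNA-Ile they were 1 to 24 counts, too few for the share to be read.

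Over the 6 libraries the families whose log2 CPM followed each tRNA most closely were mitochondrial tRNA-His (Pearson's r = 0.996), tRNA-Ser-TGA (0.991) and tRNA-Thr (0.986) for tRNA-Ile. For tRNA-Met they were nuclear tRNA-Arg-TCT (0.999), mitochondrial tRNA-Leu-TAG (0.999) and mitochondrial tRNA-Cys (0.998). For tRNA-Gln they were the nuclear tRNA-Ala families with anticodons CGC, AGC and TGC (0.851, 0.845 and 0.843), which share sequences with each other. Within the cluster tRNA-Ile and tRNA-Met had r = 0.963, tRNA-Ile and tRNA-Gln -0.578 and tRNA-Gln and tRNA-Met -0.774. These are descriptions over 6 points that share library totals, and they mostly set the 2 libraries numbered 1 against the other 4, so no p-value is given.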

How the data were processed

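The authors' deposited values are raw counts per distinct sequence, not normalized, in 1 table of 38798 sequences of 15 to 45 nt. The submitters' processing notes name the build mm10. For the aligner, annotation tool and filters: not given in the sources used here. Sample titles supplied groups and replicate numbers. Members were matched exactly to the GENCODE M21 tRNA genes on GRCm38 followed by CCA. The members, lists and tests were chosen with earlier results of these data known.

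Counts of all tsRNAs, of all 73 families and of family-by-class sums were fitted with the quasi-likelihood test of edgeR 4.0.16 (R 4.3.3). It used filterByExpr, TMM scaling and a term for the group alone, with Benjamini-Hochberg adjustment over each whole table (threshold 0.05). The fit was also run on simulated counts with a dispersion of 0.05 and no replicate effect. In the data the common dispersions were 0.7058 (tsRNAs), 0.3178 (families) and 0.6052 (class sums), so that simulation gives no error rates for them. Sequences of several families counted in each. The SE beside an edgeR estimate is its absolute log2 change divided by the square root of the F statistic. DESeq2 1.42.0 and limma 3.58.1 were alternatives, and their SEs are those of their own fits. Adjusted p-values that DESeq2 left out stayed out. Two-sided exact permutation tests (SciPy 1.17.1) compared shares. Figures were drawn with matplotlib 3.10.9. Named tsRNAs were, per tRNA, the 3 most abundant, the most abundant of each class, those called with or without the block, and, by smallest unadjusted p, 2 higher and 2 lower ones. Depth was 330787 to 2563749 counts a library.

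The pairing by replicate number was checked on each library's deviation from its group mean. Libraries with the same number correlated at 0.81, 0.533 and 0.451, but at -0.0281 when replicates 2 and 3 were taken alone, so the pairing rests on the libraries numbered 1.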

Additional observations from a re-analysis of the deposited data

How the results depend on the processing

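All values are log2 changes unless named. Alternatives chosen after seeing the data were replicates 2 and 3 only, the block combined with other tools or scalings or with a sequence left out, and each pair left out of the blocked fit. With the replicate block (pairing by number) 2 members were called lower in edgeR, 2 with DESeq2 size factors and 4 with DESeq2, against 0 without the block. Leaving out libraries or pairs gave 0 to 6. Class sums called lower numbered 1 with the block in DESeq2 and 2 with replicates 2 and 3 only. The family estimate of tRNA-Ile passed with the block in limma voom (-0.91) and with replicates 2 and 3 only (-1.51), where tRNA-Gln also passed (-0.98). That of tRNA-Met turned sign with DESeq2 size factors (0.12), DESeq2 (0.12) and library totals (0.011), and with the block in DESeq2 (0.12) and with its size factors (0.12). So did its internal class, at 0.012, 0.012 and 0.0060 in these 3, 0.028 without a filter, and 0.0067 and 0.0068 with the block. Its 5' class was at 0.027 with library totals. Ile 1-37 turned to -0.38 in limma voom, -0.36 with the block, -0.39 with the block in DESeq2, -0.39 with its size factors, -0.22 in voom with the block and -0.68 with replicates 2 and 3 only. Met 18-50 turned to 0.27 in voom, 0.15 without a filter, 0.18, 0.14, 0.14 and 0.15 in the 4 blocked fits and 0.42 with replicates 2 and 3 only. Gln 60-74, a CCA end, turned to 0.19 in voom, 0.17 with the block there and 0.060 with replicates 2 and 3 only, where Ile 7-31 was at -0.22 and Met 1-29 at -0.023. No CCA end of the 3 tRNAs was as long as 20 nt. With fragments of at least 20 nt only, that class was empty and its differences were 0 by construction. Over all fits with a library or pair left out, the family estimates ran from -3.02 to 1.26 (tRNA-Ile), -1.32 to -0.24 (tRNA-Gln) and -0.14 to 0.059 (tRNA-Met). The 5' class ran from -3.81 to 1.34 (tRNA-Ile) and -0.44 to 0.21 (tRNA-Met), the internal class from -2.20 to 0.97 (tRNA-Ile) and -0.16 to 0.094 (tRNA-Met), and CCA ends of tRNA-Gln from -0.56 to 1.34. Single tsRNAs ran from -0.93 to 0.39 (Gln 1-18), -0.65 to 0.71 (Gln 60-74), -4.57 to 1.73 (Ile 1-30), -5.46 to 2.58 (Ile 7-37), -3.49 to 2.95 (Ile 1-37), -1.26 to 1.54 (Ile 7-31), -0.85 to 1.61 (Ile 11-30), -0.37 to 0.90 (Met 1-29) and -0.35 to 0.72 (Met 18-50). The cause of these shifts was not tested. The block moved no other call of this cluster. Depth limits tRNA-Ile most, with 358 to 1214 counts in the 4 deep libraries.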

Other observations

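Fragment length also differed between the libraries numbered 1 and the others. Pieces of at least 30 nt made up 82.8% and 82.5% of tRNA-Gln counts in hypoxia 2 and 3 and 86.1% and 88.6% in normoxia 2 and 3, but 54.3% and 61.0% in hypoxia 1 and normoxia 1. For tRNA-Met the same share was higher in the libraries numbered 1 (60.4% and 61.3%) than in the others (36.1% to 42.5%). The median tRNA-Gln fragment was 42 nt in the 4 deep libraries, and 32 and 35 nt in hypoxia 1 and normoxia 1. That of tRNA-Met was 28 or 29 nt in the deep libraries and 32 nt in both others, and that of tRNA-Ile was 27 to 30 nt in all 6.

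Fragments that lie wholly after the anticodon were a small share of tRNA-Ile, at 0.44%, 5.21% and 6.42% in hypoxia and 0.31%, 2.29% and 2.06% in normoxia (two-sided exact permutation p = 0.3, n = 3 each, with a smallest possible p of 0.1). In tRNA-Met they held 8.77%, 21.1% and 19.5% against 7.48%, 25.6% and 27.7% (exact permutation p = 0.6, n = 3 each). Fragments of tRNA-Gln nearly all spanned or preceded the anticodon, with at most 3.51% lying after it in any library.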
